A study of Mus musculus with 8 samples.

Results

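The 10 members of the glutathione S-transferase families followed here were Gsta3 and Gsta4 (alpha class), Gstm1 and Gstm2 (mu), Gstp1 (pi), Gstt1 (theta), Gsto1 (omega) and the microsomal Mgst1, Mgst2 and Mgst3. They were taken by gene symbol from the 33027 genes of the deposited matrix, and all 10 were found. Single-cell RNA was sequenced from the right lungs of 8 Sftpc-CreERT2-mTmG mice on a C57Bl/6 background, 4 exposed to cigarette smoke (CS mice C2, C5, D2 and D5) and 4 kept in room air (RA mice F1, F3, M1 and M3), each for 10 months. Every mouse, RA mice included, carried the tamoxifen-inducible Cre recombinase driven by the Sftpc promoter and the mTmG reporter, and received tamoxifen at an age of 8 to 10 weeks. Littermates were assigned to CS or RA at random. Lung cells were separated with CD45 beads and recombined to 10% CD45+ and 90% CD45- cells, so the share of immune cells was set by the preparation and is not used here. Values are transcripts per 10,000 transcripts of a cell, averaged over the cells of a labelled type in a mouse, and n is the number of mice. Values of single mice follow the order C2, C5, D2 and D5 for CS and F1, F3, M1 and M3 for RA.

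Glutathione S-transferases join the thiol of reduced glutathione to electrophiles, such as the aldehydes and epoxides of tobacco smoke and the products of lipid peroxidation, so that these can be exported from the cell. The alpha, mu, pi, theta and omega classes are mostly cytosolic enzymes, whereas the microsomal members are membrane proteins of a separate family that includes leukotriene synthases. Several of the genes are known targets of the transcription factor Nrf2, which binds antioxidant response elements after oxidative or electrophilic stress, and of the aryl hydrocarbon receptor, which binds xenobiotic response elements. In the airways, secretory cells are known as a main site of such enzymes.

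After 1025 multiplets and 7 cells labelled as cell cycle were left out, 40074 cells remained, 20330 of CS and 19744 of RA mice, in 32 labelled types. Total unique molecular identifiers (UMIs) ran from 34417120 to 50439134 in CS mice and from 31882952 to 55485617 in RA mice. Of 89 markers listed for the types, 81 were highest in the type they were listed for, and each of the 31 types with markers had at least 1 that was. The sex-linked transcripts of the 4 RA libraries followed their labels, female for F1 and F3 and male for M1 and M3. The CS libraries labelled male (C2 and C5) instead showed Xist, at 7.83 and 8.34 transcripts per 10,000. In those labelled female (D2 and D5), Xist was at most 0.0421 and Ddx3y, a gene of the Y chromosome, stood at 0.925 and 1.08. The exposure of these 4 libraries was taken from the labels, and the 4 calls between CS and RA given below held both with the labelled sex and with the sex read from these transcripts as a term. There were 197 barcodes shared by libraries of different mice, which touch 394 cells.

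On build GRCm38, the protein-coding genes of the members lie on chromosomes 1, 3, 6, 9, 10 and 19. Gstm1 (chromosome 3, 108012255 to 108017973) and Gstm2 (chromosome 3, 107981702 to 107986453) lie near each other on the minus strand, and Mgst2 (chromosome 3, 51660360 to 51682677) lies on the same chromosome. Gsto1 (chromosome 19, 47854970 to 47864790) and Gstp1 (chromosome 19, 4035407 to 4037985) share another, and Gstt1 spans 75783813 to 75798584 of chromosome 10. RefSeq promoter windows of 300 bases around the start were found for 9 of the 10 members, 11 windows in all, as Gstm1 and Mgst1 have 2 each. The antioxidant response element was searched as TGACNNNGC and the core of the xenobiotic response element as GCGTG, each on both strands. The former was in 2 of the 11 windows, those of Gsta3 and of 1 start of Mgst1, and in 12.4% of 32851 windows of mouse genes. The latter was in 4 of the 11, those of Gstm1, Gstp1 and Mgst3, and in 32.4% of all windows. The 2 windows of Gstm1 overlap and hold the same match. The windows of Gsto1, Mgst2 and Gstt1 are shown first, because these are the members that passed the test between CS and RA, and held neither motif. The windows of Mgst2 and Gstt1 lie inside the annotated gene, downstream of its outer 5′ end, and that end was not searched. The windows of Gsta3 and Mgst1 are shown because they hold the antioxidant response element, here in capitals, at -121 and -56 from the start and in Mgst1 on the opposite strand. Windows are from RefSeq on GRCm38.p6, written 5′ to 3′ in the direction of the gene. A match describes the letters of a window only, and a window without a match says nothing of sites outside it.
Gsto1 (chr19:47854723-47855022, + strand): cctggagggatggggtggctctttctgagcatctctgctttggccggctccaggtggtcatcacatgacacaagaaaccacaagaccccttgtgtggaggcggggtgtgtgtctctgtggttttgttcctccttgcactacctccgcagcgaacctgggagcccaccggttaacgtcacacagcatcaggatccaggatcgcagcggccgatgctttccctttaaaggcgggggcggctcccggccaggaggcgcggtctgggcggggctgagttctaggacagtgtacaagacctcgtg
Mgst2 (chr3:51660929-51661228, + strand): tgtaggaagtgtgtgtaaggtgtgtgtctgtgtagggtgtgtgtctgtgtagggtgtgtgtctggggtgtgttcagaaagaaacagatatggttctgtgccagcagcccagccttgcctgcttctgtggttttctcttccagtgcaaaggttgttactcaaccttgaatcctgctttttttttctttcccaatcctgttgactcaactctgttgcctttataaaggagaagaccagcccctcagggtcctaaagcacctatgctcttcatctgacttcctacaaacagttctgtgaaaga
Gstt1 (chr10:75797682-75797981, - strand): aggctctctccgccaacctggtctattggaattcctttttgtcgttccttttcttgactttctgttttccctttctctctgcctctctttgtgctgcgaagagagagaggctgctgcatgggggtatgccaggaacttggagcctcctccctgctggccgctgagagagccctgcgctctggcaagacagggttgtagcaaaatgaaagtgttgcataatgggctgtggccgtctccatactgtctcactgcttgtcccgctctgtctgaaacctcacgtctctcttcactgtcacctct
Gsta3 (chr1:21240335-21240634, + strand): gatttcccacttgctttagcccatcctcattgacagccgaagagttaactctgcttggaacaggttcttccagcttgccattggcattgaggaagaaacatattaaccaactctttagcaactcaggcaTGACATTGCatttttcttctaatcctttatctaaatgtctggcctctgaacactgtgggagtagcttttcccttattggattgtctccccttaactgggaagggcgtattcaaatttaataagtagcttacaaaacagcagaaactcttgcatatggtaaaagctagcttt
Mgst1 (chr6:138140277-138140576, + strand): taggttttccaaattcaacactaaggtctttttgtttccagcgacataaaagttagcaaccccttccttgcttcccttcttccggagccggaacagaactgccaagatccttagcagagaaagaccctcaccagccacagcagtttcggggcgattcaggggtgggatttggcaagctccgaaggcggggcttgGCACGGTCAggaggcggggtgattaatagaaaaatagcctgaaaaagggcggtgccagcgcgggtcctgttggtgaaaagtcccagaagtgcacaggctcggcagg

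Levels were first compared between cell types within each member, over the 22 types that had at least 20 cells in at least 3 mice of each group. By the mean over all mice with at least 20 cells of a type, most members were highest in an airway epithelial type: Gsta4, Gsto1, Mgst1 and Mgst2 in goblet cells, and Gstm1, Gstp1 and Mgst3 in ciliated cells. Gsta3 and Gstt1 were highest in mesothelial cells, the epithelium that covers the lung, where 7 mice had enough cells, and Gstm2 in adventitial fibroblasts. For each member, the 6 highest types were ordered by mean level, and each was compared with the next within mice by exact two-sided sign-flip tests. Of 50 such comparisons, 18 passed an adjusted p of 0.05, and the smallest p that 8 mice allow is 0.0078, while fewer mice allow only larger values. In 13 of the 50, none of which passed, the means of the 2 types stood in opposite order in CS and RA mice. Levels of different members were not compared with each other.

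**Figure D1:**
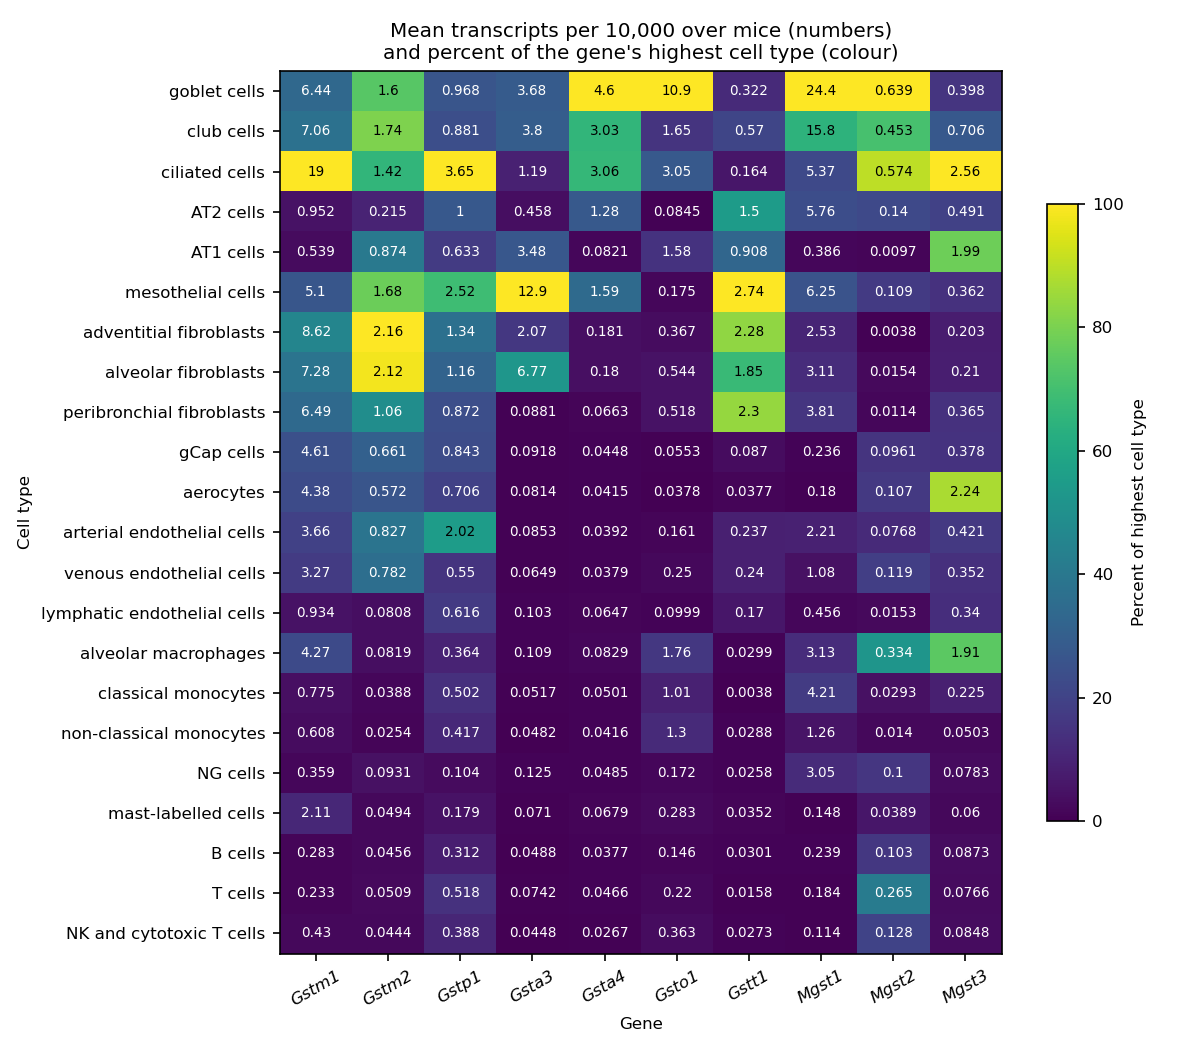
Levels of the 10 members (columns) in 22 cell types (rows), where numbers are mean transcripts per 10,000 over CS and RA mice and colours give the percent of the highest cell type of that gene. Goblet cells hold the highest mean of Gsta4, Gsto1, Mgst1 and Mgst2, and ciliated cells that of Gstm1, Gstp1 and Mgst3.

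Among the alpha class, Gsta3, whose mouse enzyme is known for the conjugation of aflatoxin epoxide, reached 12.9 ± 2.45 transcripts per 10,000 (SD, n = 7) in mesothelial cells. It was 6.77 ± 4.28 (SD, n = 8) in alveolar fibroblasts and 3.80 ± 0.648 (SD, n = 8) in club cells, and each of these steps held within mice (adjusted exact p = 0.0434 and 0.0279). The steps between club, goblet and AT1 cells, at 3.80, 3.68 and 3.48 over all mice, did not pass, but their order was not the same in both groups. Club cells were above goblet cells in 4 of 4 CS mice (means 3.80 and 2.77) and in 0 of 4 RA mice (3.79 and 4.60), and goblet cells were above AT1 cells in 0 of 4 CS and 4 of 4 RA mice. Among fibroblasts the level of Gsta3 was uneven, with 2.07 ± 1.23 (SD, n = 8) in adventitial and 0.0881 ± 0.0903 (SD, n = 6) in peribronchial fibroblasts. In each lymphoid, monocyte and endothelial type it was at most 0.103. Gsta4, the enzyme that conjugates the lipid peroxidation product 4-hydroxynonenal, was 4.60 ± 0.742 (SD, n = 8) in goblet cells and higher there than in ciliated cells in 8 of 8 mice (3.06 ± 0.527, SD, n = 8; adjusted exact p = 0.0279). Ciliated and club cells (3.03 ± 0.344, SD, n = 8) were close in the mean over all mice, and that step did not pass. Ciliated cells were above club cells in 4 of 4 CS mice and in 1 of 4 RA mice. AT2 cells held 1.28 ± 0.151 (SD, n = 8), and the next type, adventitial fibroblasts, held 0.181 ± 0.0464 (SD, n = 8), lower in 8 of 8 mice (adjusted exact p = 0.0279). Every type ranked below AT2 cells held at most 0.181.

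Of the mu class, Gstm1, an enzyme with a broad range of electrophile substrates, was 19.0 ± 2.59 transcripts per 10,000 (SD, n = 8) in ciliated cells. The 4 CS mice held 18.8, 15.2, 22.1 and 21.9 there, and the 4 RA mice 18.5, 16.1, 21.2 and 18.1. This exceeded adventitial fibroblasts (8.62 ± 1.80, SD, n = 8) by 1.06 on the log2 scale, in 8 of 8 mice (adjusted exact p = 0.0279). Adventitial fibroblasts in turn were above alveolar fibroblasts (7.28 ± 1.44, SD, n = 8) in 8 of 8 mice (adjusted exact p = 0.0279). The steps from there to club cells (7.06), peribronchial fibroblasts (6.49) and goblet cells (6.44) did not pass. Those to and from peribronchial fibroblasts could hardly pass, as too few mice had enough of these cells. Endothelial cells also held the transcript, from 4.61 in gCap cells, the general capillary endothelium, to 0.934 in lymphatic endothelial cells. T cells were lowest, at 0.233 ± 0.0677 (SD, n = 8). Gstm2 was found in both stroma and airway: adventitial fibroblasts had 2.16 ± 0.400 (SD, n = 8), alveolar fibroblasts 2.12, club cells 1.74, mesothelial cells 1.68, goblet cells 1.60 and ciliated cells 1.42. None of these 5 steps passed the test. In adventitial fibroblasts, CS mice held 1.92, 2.12, 1.78 and 1.70 and RA mice 2.7, 2.09, 2.15 and 2.80, so that the groups overlapped through C5 and F3. In immune types Gstm2 was at most 0.0931.

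Gstp1, the pi-class enzyme that conjugates acrolein and other small electrophiles, was highest in ciliated cells, at 3.65 ± 1.62 transcripts per 10,000 (SD, n = 8). There the CS mice held 5.22, 1.80, 4.47 and 5.12, and the RA mice 1.47, 2.13, 5.26 and 3.72. Mesothelial cells (2.52 ± 0.943, SD, n = 7) and arterial endothelial cells (2.02 ± 1.09, SD, n = 8) followed, and neither step passed the test. Adventitial fibroblasts (1.34) were above alveolar fibroblasts (1.16) in 8 of 8 mice (adjusted exact p = 0.0279), whereas venous endothelial cells held 0.550 ± 0.165 (SD, n = 8). The same mice recurred at the ends of the range of Gstp1 in many cell types. Of the 16 types in which Gstp1 was tested and all 8 mice had enough cells, CS mouse C5 was lowest in 14 and among the lowest 2 in 16. RA mouse M1 was highest in 8 of the 16. In AT1 cells, for example, C5 held 0.295 and M1 0.919 per 10,000, and in gCap cells C5 held 0.430 and M1 1.23. A near-identical copy, Gstp2, lies beside Gstp1 in the mouse genome, and how reads that fit both copies were counted is not given in the sources used here.

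**Figure D2:**
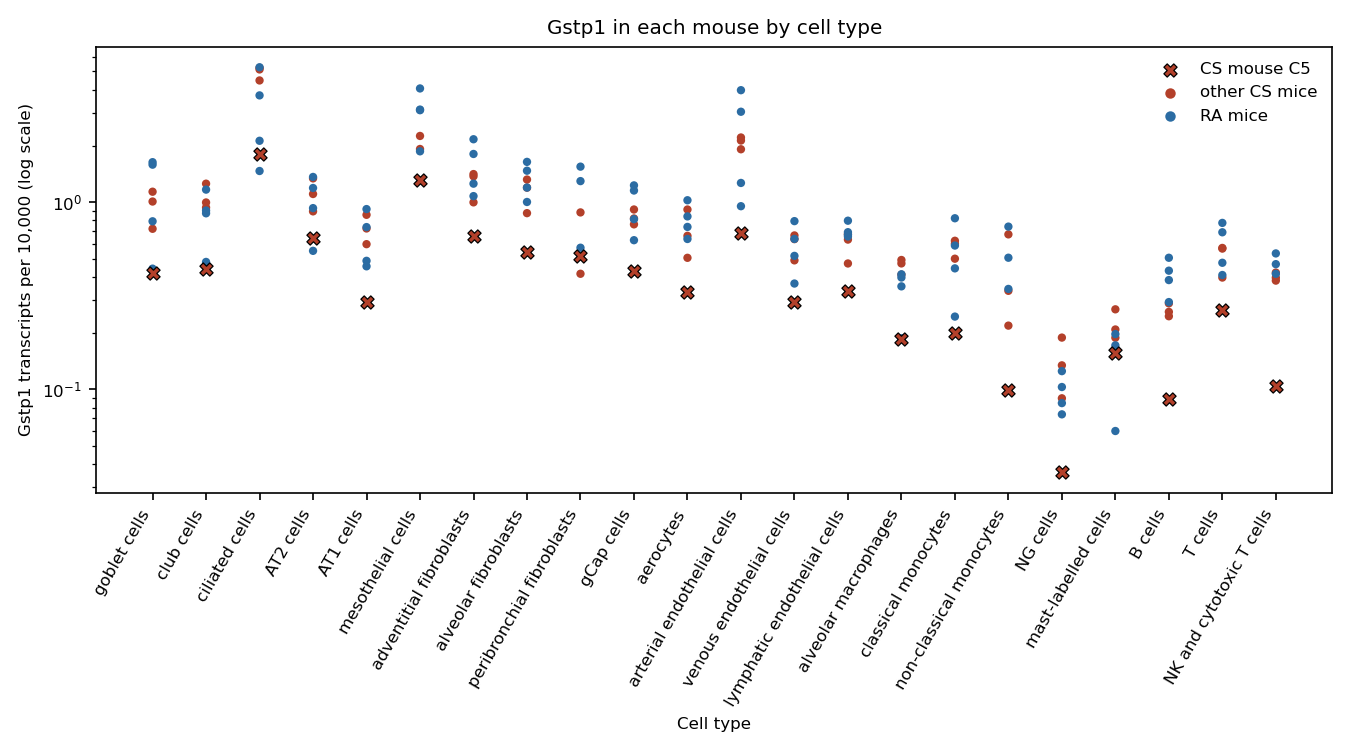
Gstp1 in each mouse (points) by cell type, in transcripts per 10,000 on a log axis, with CS mouse C5 as a cross, other CS mice in red and RA mice in blue. C5 lies lowest in 14 of the 16 types in which the gene was tested and 8 mice had enough cells.

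Gstt1, the theta-class enzyme that acts on small halogenated compounds and epoxides, was a transcript of stroma and alveolar epithelium. It reached 2.74 ± 0.203 transcripts per 10,000 (SD, n = 7) in mesothelial cells, followed by peribronchial (2.30 ± 0.514, SD, n = 6), adventitial (2.28 ± 0.304, SD, n = 8) and alveolar fibroblasts (1.85 ± 0.234, SD, n = 8), AT2 cells (1.5 ± 0.184, SD, n = 8) and AT1 cells (0.908 ± 0.225, SD, n = 8). The step from adventitial to alveolar fibroblasts, that to AT2 cells and that to AT1 cells each held in 8 of 8 mice (adjusted exact p = 0.0279 for each). The steps among the first 3 types did not pass. Each involves peribronchial fibroblasts, where too few mice had enough cells for the exact test to pass adjustment here. Ciliated cells held 0.164 ± 0.0408 (SD, n = 8), the lowest of the epithelial types. Gsto1, the omega-class enzyme with thioltransferase and dehydroascorbate reductase activity, stood out in goblet cells, at 10.9 ± 1.81 (SD, n = 8). CS mice held 13.4, 10.4, 8.85 and 10.7 there, and RA mice 8.50, 11.7, 13.3 and 10.5. Ciliated cells were next, at 3.05 ± 0.507 (SD, n = 8), and lower by a log2 difference of 1.55 in 8 of 8 mice (adjusted exact p = 0.0279). They were above alveolar macrophages (1.76) in 8 of 8 mice (adjusted exact p = 0.0279), and the further steps to club cells (1.65), AT1 cells (1.58) and non-classical monocytes (1.30) did not pass. AT2 cells held 0.0845 ± 0.0257 (SD, n = 8) of Gsto1, against 1.58 ± 0.309 (SD, n = 8) in AT1 cells.

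Of the microsomal members, Mgst1, a glutathione transferase and peroxidase of the endoplasmic reticulum and mitochondria, was highest in secretory airway cells. Goblet cells held 24.4 ± 3.27 transcripts per 10,000 (SD, n = 8), club cells 15.8 ± 3.20 (SD, n = 8) and mesothelial cells 6.25 ± 0.780 (SD, n = 7), and both steps passed (adjusted exact p = 0.0279 and 0.0434). AT2 (5.76) and ciliated cells (5.37) did not differ beyond their spread. Mgst1 was also found in myeloid cells, with 4.21 ± 0.485 (SD, n = 8) in classical monocytes and 3.05 ± 0.895 (SD, n = 8) in the cells labelled NG, which held S100a8 and S100a9. Mgst2, which can form leukotriene C4, was 0.639 ± 0.10 (SD, n = 8) in goblet cells and 0.574 ± 0.145 (SD, n = 8) in ciliated cells, and did not reach 1 in any type. That step did not pass (higher in goblet cells in 6 of 8 mice, adjusted exact p = 0.232), and its direction was not that of both groups: the means in goblet and ciliated cells were 0.662 and 0.692 in CS mice and 0.615 and 0.457 in RA mice. T cells were the first lymphoid type in its order, at 0.265 ± 0.0862 (SD, n = 8). Mgst3, a glutathione peroxidase of the same family, had 4 types close together in the mean over all mice. These were ciliated cells (2.56 ± 0.196, SD, n = 8), aerocytes (2.24 ± 0.404, SD, n = 8), which are the capillary cells of gas exchange, AT1 cells (1.99 ± 0.234, SD, n = 8) and alveolar macrophages (1.91 ± 0.728, SD, n = 8), with no step between them that passed. Alveolar macrophages held 2.52 in CS and 1.31 in RA mice, and AT1 cells were above them in 1 of 4 CS and 4 of 4 RA mice. Club cells came next at 0.706 ± 0.0962 (SD, n = 8), lower in 8 of 8 mice (adjusted exact p = 0.0279). The other capillary type, gCap cells, held 0.378 ± 0.0528 (SD, n = 8).

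Likeness of pattern was described by Pearson's r of log2(mean + 1) over the 22 types, which share mice and libraries, among 14928 genes. Gsta4 was most like Tst, which encodes a mitochondrial sulfurtransferase (r = 0.976), and Gstt1 most like Rbms3 (r = 0.939). Mgst1 was most like Por, the reductase that supplies electrons to cytochrome P450 enzymes (r = 0.859), followed by Tst (r = 0.817). Gsto1 was most like Lyzl4 (r = 0.889) and Aqp4, a water channel (r = 0.885). The highest r for the others were 0.834 for Gstm1 with Thnsl2, 0.901 for Gstm2 with Tmem176a, 0.876 for Gstp1 with Cdkn1c, 0.868 for Gsta3 with Gm19426, 0.896 for Mgst2 with Ffar4 and 0.909 for Mgst3 with Hgs. Among the members themselves, the highest r were 0.812 for Gstm1 with Gstm2 and 0.809 for Gsta4 with Mgst1.

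CS and RA mice were then compared in each cell type by limma, fitted to log2(mean + 1). A gene entered where 10% or more of CS cells or of RA cells held it. Adjustment was by the Benjamini-Hochberg method over all genes tested in that type. Of 220 values of 10 members in 22 types, 137 passed this filter, which rests on levels in either group. A total of 4 passed an adjusted p of 0.05, 3 higher and 1 lower in CS, while 1.23% of all tests of genes in these types passed. An unadjusted p under 0.05 was found for 24 of the 137, against 15.2% of all tests. The members were chosen with earlier results of these data known, so that these counts are no independent support. The 4 were Gsto1, Mgst2 and Gstt1 in ciliated cells and Gstt1 in AT1 cells, and in the other 20 types no member passed.

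**Figure D3:**
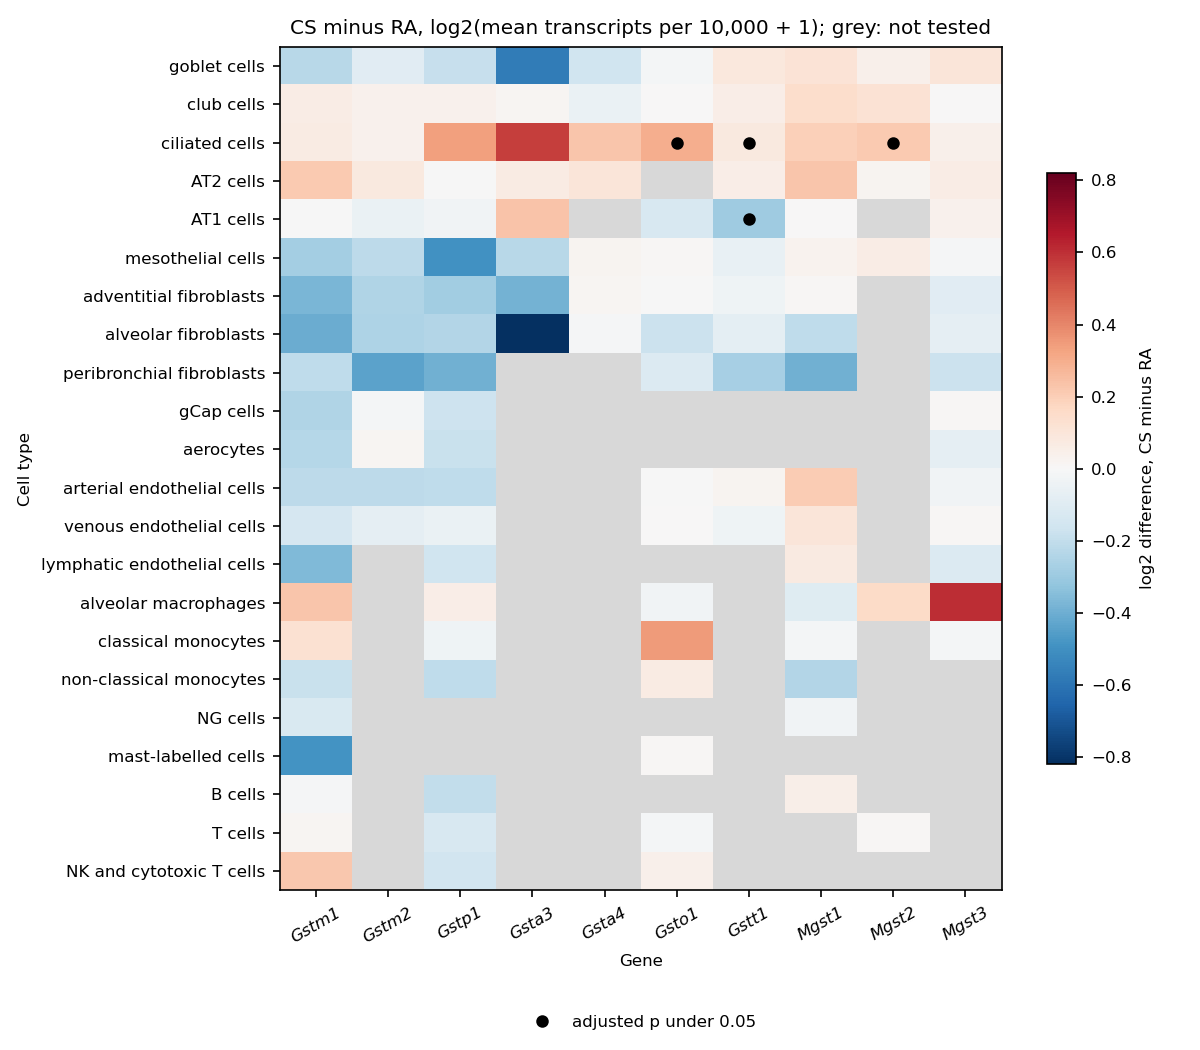
Difference between CS and RA mice in log2(mean transcripts per 10,000 + 1) for the 10 members (columns) in 22 cell types (rows), red where higher in CS, blue where lower and grey where not tested. Dots mark the 4 differences with an adjusted p under 0.05, of which 3 lie in ciliated cells and 1 in AT1 cells.

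In ciliated cells, Gsto1, Mgst2 and Gstt1 were higher in CS mice, and all 10 members had a difference above 0, as did 55.5% of all genes tested. The members share mice and cells, so that this is not a count of independent results. Their median log2 difference was 0.21, against 0.01 over the 11077 genes tested, of which 2.72% were called higher in CS. The median of the members was 0.11 without RA mouse F1, 0.13 without CS mouse D2 and 0.18 to 0.26 without any other mouse. For Gsto1, CS mice held 3.29, 3.30, 3.36 and 3.91 transcripts per 10,000 and RA mice 2.88, 2.44, 2.75 and 2.45. The lowest CS mouse exceeded the highest RA mouse, and D5 stood above the other 3. The means were 3.46 ± 0.298 (SD, n = 4) and 2.63 ± 0.221 (SD, n = 4), a ratio of 1.32 and a log2 difference of 0.30 (SE 0.0687, limma adjusted p = 0.0378). For Mgst2, CS mice held 0.688, 0.587, 0.747 and 0.745 and RA mice 0.436, 0.462, 0.563 and 0.366. The groups did not overlap, although CS mouse C5, at 0.587, and RA mouse M1, at 0.563, lay close together. The ratio of the means, 0.692 ± 0.0750 and 0.457 ± 0.0816 (SD, n = 4 each), was 1.52, and the log2 difference was 0.22 (SE 0.0459, limma adjusted p = 0.0285). For Gstt1, CS mice held 0.206, 0.167, 0.232 and 0.182 and RA mice 0.145, 0.139, 0.123 and 0.116. Again the groups were apart, at a low level for this gene. The ratio was 1.5, and the log2 difference of 0.08 is small because 1 was added to these low means before the log (SE 0.0198, limma adjusted p = 0.0451). The summed UMIs of a mouse behind these values were 1514 to 4405 for Gsto1, 200 to 792 for Mgst2 and 74.0 to 239 for Gstt1.

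Few of these calls held with a mouse left out, 1 of 8 fits for Gsto1, 2 of 8 for Mgst2 and 1 of 8 for Gstt1. Each of the 3 kept its direction with any mouse left out, but the range of adjusted p over the 8 fits was 0.0298 to 0.108 for Gsto1, 0.0192 to 0.0872 for Mgst2 and 0.0393 to 0.121 for Gstt1. None of the 4 calls remained without CS mouse C2, D2 or D5, or without RA mouse F3 or M3. Each sequencing lane held 1 CS and 1 RA mouse, and with lane as a term the limma adjusted p was 0.10, 0.0818 and 0.0685 for Gsto1, Mgst2 and Gstt1. Transcripts of club cells moved beside these results. Their marker Cyp2f2 was 26.3 to 35.4 per 10,000 in ciliated cells of CS mice and 19.6 to 22.6 in those of RA mice, and the sum of the 3 club markers (Scgb1a1, Scgb3a2 and Cyp2f2) was 42.4 to 73.4 and 31.1 to 58.9. Cyp2f2 did not overlap between the groups, whereas the sum did, as did Scgb1a1, at 15.6 to 37.5 and 11.1 to 36.8, and Scgb3a2, at 0.565 to 1.42 and 0.289 to 1.65. The sum of 3 goblet markers was 0.225 to 1.10 in CS and 0.0733 to 1.27 in RA mice, and the basal marker Krt5 was at or near 0 in all mice. The part of these transcripts in the differences of Gsto1, Mgst2 and Gstt1 was not tested. The sum of 3 ciliated markers (Foxj1, Tppp3 and Ccdc153) was 42.8 to 46.5 in CS and 44.6 to 47.5 in RA mice, and the median depth was 14558 to 20340 and 13475 to 19759 UMIs per cell.

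**Figure D4:**
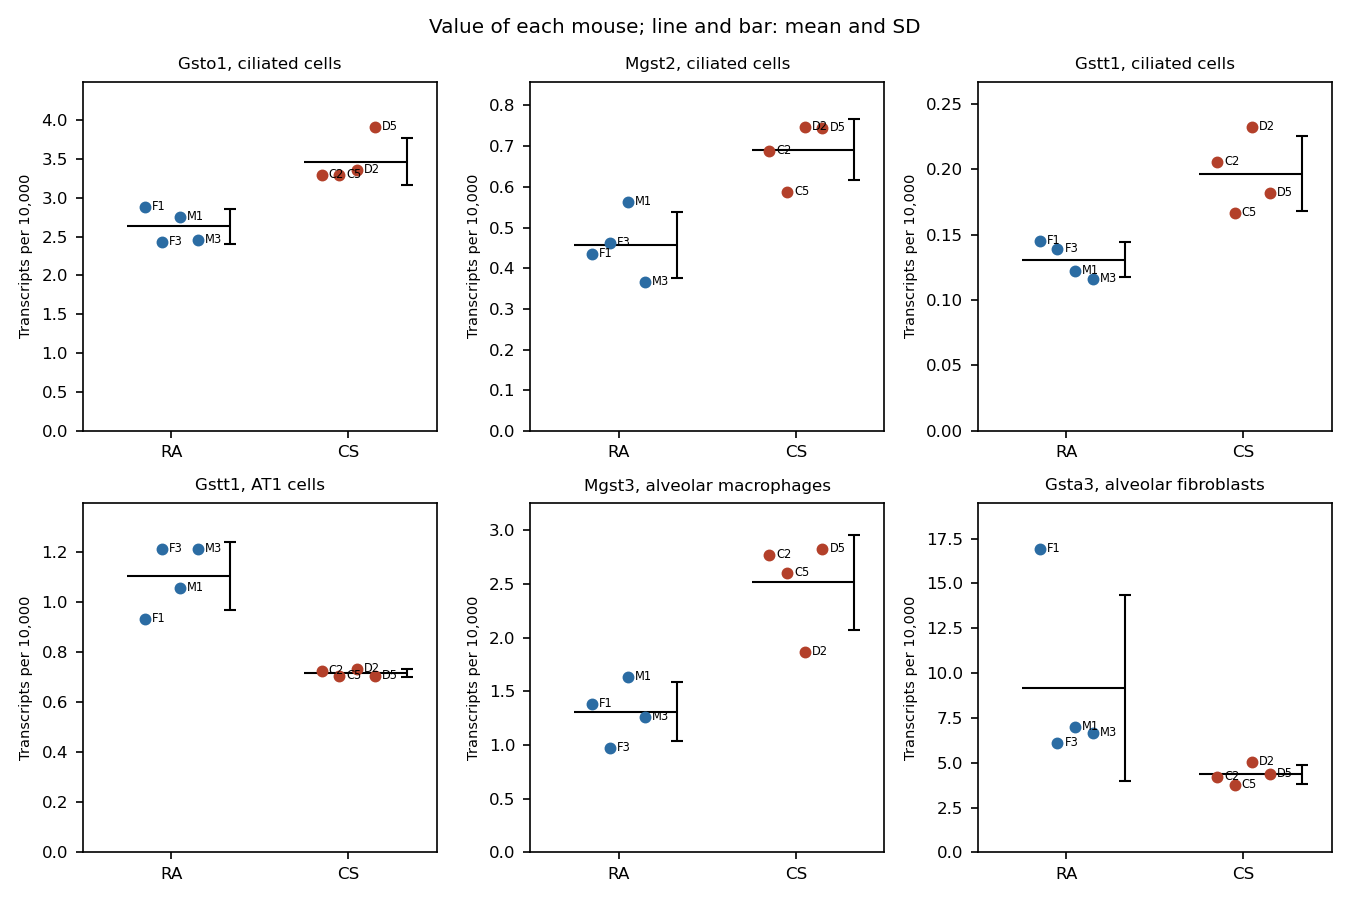
Transcripts per 10,000 in each mouse (points with names) for Gsto1, Mgst2 and Gstt1 in ciliated cells, Gstt1 in AT1 cells, Mgst3 in alveolar macrophages and Gsta3 in alveolar fibroblasts, with the group mean as a line and its SD as a bar (n = 4 each). The panels were chosen because they passed or, for Mgst3 and Gsta3, after their values were seen. In each panel the CS and RA mice do not overlap, and Gsta3 of RA mouse F1 stands at 16.9, above the other RA mice. The share of all genes without overlap was not counted. Of all genes tested in these types, 10.0% (alveolar macrophages) to 24.1% (ciliated cells) had an unadjusted p under 0.05.

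The other members in ciliated cells did not pass. Gsta3 had a ratio of 2.13 between 1.61 ± 0.689 with smoke and 0.756 ± 0.474 in room air (SD, n = 4 each), but RA mouse M1, at 1.44, lay above CS mice C2 and C5 (limma adjusted p = 0.127). Among the mice with Xist, C2 and C5 held 1.29 and 0.803 of Gsta3, and F1 and F3 0.421 and 0.461. Among those with Ddx3y, D2 and D5 held 2.29 and 2.07, and M1 and M3 1.44 and 0.701. CS and RA did not overlap within either set, but this split was read after the values were seen. The share of all genes that split in this way was not counted. Gsta4 was 3.38 ± 0.451 and 2.74 ± 0.419 (SD, n = 4 each, limma adjusted p = 0.181). Gstp1 differed by a log2 value of 0.34 with a standard error of 0.309. Gstm1 was 19.5 ± 3.22 with smoke and 18.5 ± 2.13 in room air (SD, n = 4 each, limma adjusted p = 0.780), and Mgst3 was 2.62 ± 0.232 and 2.51 ± 0.166 (SD, n = 4 each, limma adjusted p = 0.713).

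In AT1 cells, the thin cells of gas exchange, Gstt1 was lower in CS mice. The CS mice held 0.723, 0.703, 0.732 and 0.702 transcripts per 10,000 and the RA mice 0.931, 1.21, 1.06 and 1.21, so that the CS mice lay close together and below every RA mouse. The ratio of the means, 0.715 ± 0.0148 and 1.10 ± 0.135 (SD, n = 4 each), was 0.649, and Gstt1 fell by 0.29 on the log2 scale (SE 0.0635, limma adjusted p = 0.0261), while 0.992% of the genes tested in AT1 cells were called lower. The adjusted p ranged from 0.0103 to 0.0755 with a mouse left out, and the call held without RA mouse F1 or M1 and was lost without any of the other 6. With lane as a term the limma adjusted p was 0.0476. Summed UMIs of a mouse were 68.8 to 127 in CS and 93.8 to 171 in RA. The median depth was 8346 to 12857 UMIs per cell in CS and 9708 to 17293 in RA mice, with overlap, and its part in the difference was not tested. The sum of the AT1 markers Ager, Hopx and Rtkn2, which are not given singly here, was also lower in AT1 cells of CS mice, at 228 to 270 against 271 to 313 in RA mice. Of abundant transcripts from other cells only Sftpc is given here, at 0 to 3.86 and 0.0155 to 10.0 with overlap, and it does not stand for the others. The part of these in the difference of Gstt1 was not tested. The other 7 members tested in AT1 cells had an adjusted p of at least 0.498, among them Gsta3, at 3.80 ± 0.732 with smoke and 3.16 ± 1.10 in room air (SD, n = 4 each).

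AT2 cells, which make surfactant, showed no member past the threshold, and no gene of the 9032 tested (0.0%). Of the 9 members tested, 8 were above 0, as were 52.7% of all genes tested there. The median log2 difference of the members was 0.07 against 0.00 for all genes. Members share mice and cells, so that this is not a count of independent results. An unadjusted p under 0.05 was found for 2 of the 9, Gstm1 and Mgst1, against 7.43% of all genes tested. Mgst1 held 6.33, 6.84, 6.23 and 5.76 transcripts per 10,000 in CS and 4.58, 5.23, 5.85 and 5.26 in RA mice, where only the CS mouse D5 and the RA mouse M1 crossed. The means were 6.29 ± 0.441 and 5.23 ± 0.521 (SD, n = 4 each), a ratio of 1.2 (exact permutation p = 0.0571, limma adjusted p = 0.669). Gstm1 held 1.19, 0.786, 1.40 and 1.03 in CS and 0.613, 0.816, 0.904 and 0.879 in RA mice, with CS mouse C5 inside the RA range. Its ratio was 1.37 (exact permutation p = 0.114). Gstp1 was alike in mean, at 0.996 ± 0.297 and 1.01 ± 0.354 (SD, n = 4 each), with a log2 difference whose standard error was 0.130. Gsta3 was 0.491 ± 0.0182 with smoke and 0.425 ± 0.0883 in room air (SD, n = 4 each). The remaining means in CS and RA mice were 1.36 and 1.2 for Gsta4, 0.249 and 0.181 for Gstm2, 1.55 and 1.45 for Gstt1, 0.149 and 0.131 for Mgst2 and 0.522 and 0.459 for Mgst3, and each pair of groups overlapped. Gsto1, at 0.0957 and 0.0734, was found in too few AT2 cells to be tested.

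**Figure D5:**
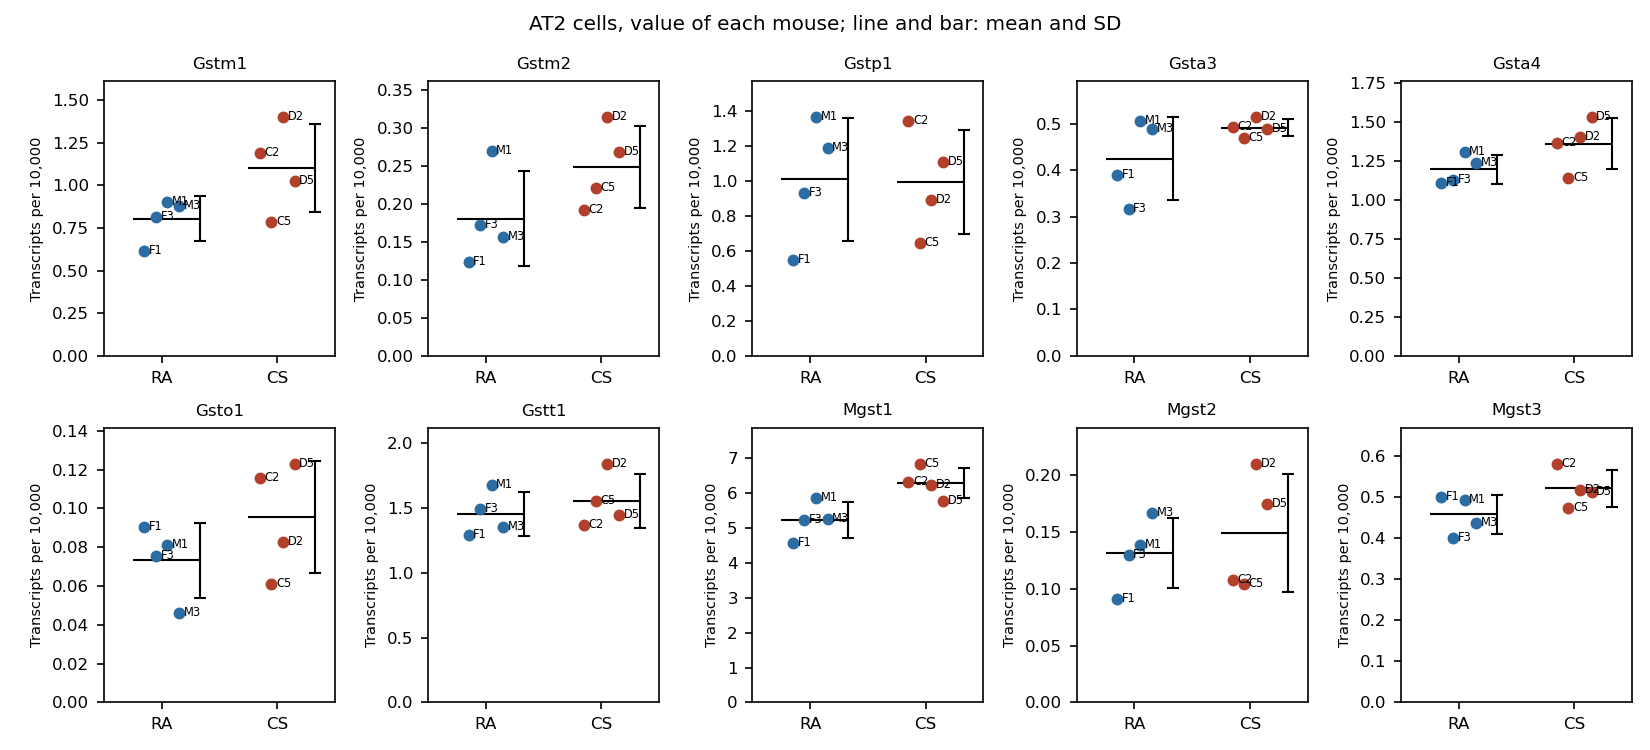
Transcripts per 10,000 of the 10 members in AT2 cells of each mouse (points with names), with the group mean as a line and its SD as a bar (n = 4 each). CS and RA mice overlap in each of the 10 panels, and for Mgst1 the RA mice run from 4.58 to 5.85 and the CS mice from 5.76 to 6.84.

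In alveolar macrophages, Mgst3 came closest to the threshold among the other types. CS mice held 2.77, 2.60, 1.87 and 2.83 transcripts per 10,000 and RA mice 1.38, 0.975, 1.63 and 1.26, and the lowest CS mouse, D2, exceeded the highest RA mouse, M1. The means were 2.52 ± 0.443 and 1.31 ± 0.274 (SD, n = 4 each), a ratio of 1.92 and a log2 difference of 0.60 (SE 0.143, limma adjusted p = 0.0624). Over 20 alternatives the adjusted p ran from 0.0306 to 0.377 and was under 0.05 in 4, which were lane as a term (0.0457), the labelled sex as a term (0.0359), quantile normalization (0.0497) and leaving out cells under 2000 UMIs (0.0306). With a mouse left out, 0 of 8 limma fits passed (adjusted p 0.0538 to 0.191). Alveolar macrophages numbered 31 to 112 cells per mouse, and 32.8 to 114 summed UMIs stood behind each value. Beside it, in a list of 5 abundant lung transcripts, Hbb-bs, a hemoglobin gene of red blood cells, was 0.246 to 12.4 in CS and 0 to 0.197 in RA mice, so that these groups did not overlap either. The other 4 overlapped, with Scgb1a1 at 1.35 to 26.1 in CS and 1.12 to 4.03 in RA mice, Sftpc at 0.00186 to 16.7 and 0.104 to 4.49, S100a8 at 0.656 to 0.987 and 0.137 to 0.988, and Chil3 at 109 to 136 and 96.6 to 273. The sum of the 5 was 127 to 165 and 99.6 to 278, and the part of these transcripts in the difference was not tested. Gstm1, Gsto1 and Mgst1, the other members with a level over 1 in alveolar macrophages, had adjusted p of 0.701, 0.960 and 0.896. In classical monocytes, Gsto1 was 1.43, 1.47, 1.19 and 0.932 in CS and 0.770, 0.914, 0.528 and 0.875 in RA mice, with no overlap and a ratio of 1.63, and did not pass (limma adjusted p = 0.325). An unadjusted p under 0.05 was found for 10.0% of all genes tested in alveolar macrophages and 10.2% in classical monocytes.

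The fibroblast types showed differences in the other direction from ciliated cells, none of which passed. This direction was not limited to fibroblasts. The median log2 difference of the members was -0.24 in mast-labelled cells (2 tested) and -0.20 in non-classical monocytes (4 tested). It was -0.14 in lymphatic endothelial cells and -0.13 in aerocytes (4 tested in each). In alveolar fibroblasts 9 of 9 members tested were below 0, with a median log2 difference of -0.21 against 0.00 for the 8329 genes tested, of which 1.37% were called in either direction. In peribronchial fibroblasts 7 of 7 were below 0 (median -0.27 against 0.01), and in adventitial fibroblasts 7 of 9 (median -0.09 against 0.00), where 3.1% of genes were called. Peribronchial fibroblasts had enough cells in only 3 CS and 3 RA mice, 23 to 64 per mouse. Of all genes tested, 49.2%, 47.9% and 47.8% were below 0 in alveolar, peribronchial and adventitial fibroblasts. In alveolar fibroblasts the number was 8 of 9 without C5, D5 or F3, in peribronchial fibroblasts it was 6 of 7 with lane as a term, and in adventitial fibroblasts it ran from 5 of 9 (without D5 or F3, or with summed counts) to 9 of 9 (without D2). Members share mice and cells, so that these counts are not independent. In alveolar fibroblasts Gsta3 held 4.18, 3.77, 5.06 and 4.40 transcripts per 10,000 in CS mice and 16.9, 6.09, 7.02 and 6.69 in RA mice. Every CS mouse was below every RA mouse, and RA mouse F1 stood far above the rest. The ratio was 0.474 and the log2 difference -0.82 (SE 0.237, limma adjusted p = 0.0907), and without F1 it was -0.51 (limma adjusted p = 0.0640). Gstm1 was 6.59, 5.42, 6.83 and 5.66 in CS and 9.50, 7.45, 8.79 and 8.0 in RA mice, again without overlap. Of all genes tested in alveolar fibroblasts, 22.3% had an unadjusted p under 0.05. The means of Gstm1, 6.12 ± 0.688 and 8.44 ± 0.90 (SD, n = 4 each), gave a ratio of 0.726 and a log2 difference of -0.41 (SE 0.119, limma adjusted p = 0.0920). Of abundant transcripts from other cells only Scgb1a1 is given here, and it does not stand for the others. In alveolar fibroblasts of RA mice, Scgb1a1 ran from 0 to 29.5 and in those of CS mice from 0.775 to 11.3, with overlap. The sum of 3 mesothelial markers was 0.0425 to 0.106 in RA and 0.0168 to 0.0423 in CS mice. Of these, Msln was apart, at 0.0279 to 0.0736 and 0 to 0.0187, whereas Upk3b (0 to 0.0323 and 0.0108 to 0.0217) and Wt1 (0 to 0.00230 and 0 to 0.00822) overlapped. The part of these transcripts was not tested. In adventitial fibroblasts Gstm1 was 7.35 ± 0.733 with smoke and 9.90 ± 1.64 in room air (SD, n = 4 each, limma adjusted p = 0.127), and Gstm2 1.88 ± 0.183 and 2.43 ± 0.369 (SD, n = 4 each, limma adjusted p = 0.157).

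In gCap cells, where 10.3% of the 6556 genes tested were called, none of the 4 members tested passed. Of all genes tested there, 35.3% had an unadjusted p under 0.05. Gstm1 was 4.17, 4.20, 4.27 and 3.84 transcripts per 10,000 in CS and 5.88, 4.37, 4.66 and 5.52 in RA mice, without overlap and with a ratio of 0.808 (limma adjusted p = 0.108). Aerocytes held 3.93 ± 0.337 with smoke and 4.82 ± 0.797 in room air (SD, n = 4 each, limma adjusted p = 0.209). In goblet cells Gsta3 was 2.54, 2.35, 3.09 and 3.11 in CS and 4.56, 4.12, 5.13 and 4.57 in RA mice, which did not overlap, and with a ratio of 0.603 it did not pass among 11842 genes (limma adjusted p = 0.195). Of those genes, 12.7% had an unadjusted p under 0.05. Goblet cells numbered 23 to 137 per mouse. Mgst1 in goblet cells, its highest type, was 25.3 ± 0.989 and 23.6 ± 4.71 (SD, n = 4 each), and Gsto1 10.8 ± 1.90 and 11 ± 2.01 (SD, n = 4 each), with groups that overlapped. In club cells Mgst2 was 0.514 ± 0.0800 with smoke and 0.393 ± 0.0508 in room air (SD, n = 4 each, limma adjusted p = 0.424). In B cells Gstp1 was 0.221 ± 0.0896 and 0.403 ± 0.0889 (SD, n = 4 each, limma adjusted p = 0.332), where C5 held 0.0888. By member, Gstp1 was below 0 in 17 of 20 types tested, and in 12 of 20 without C5, 13 without M1, 15 without M3 and 16 to 19 without any other mouse. Gstm1 was below 0 in 15 of 22, and Mgst2 above 0 in 7 of 7. With a mouse left out, Gstm1 was below 0 in 13 to 16 types. Mgst2 was above 0 in 6 of 7 types without C2 or M1, and in 6 of 8 without D2. In single types, 29.8% (goblet cells) to 50.8% (alveolar macrophages) of all genes tested were below 0, and 49.2% to 70.2% above 0. The types share mice, so that these counts are not independent.

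To ask whether the difference between CS and RA differed between related cell types, the difference of log2 values of the paired types was taken in each mouse. For gCap cells and aerocytes, AT2 and AT1 cells, alveolar and adventitial fibroblasts, and club and ciliated cells, 30 such tests were run by exact permutation over mice. An exact p of 0.0286, the smallest that 4 against 4 mice allow, was found for 3, and none passed adjustment over the 30 (smallest adjusted p = 0.245). A pass would have needed most of the 30 tests to reach that smallest p, so that no answer is drawn from the lack of one. These 3 are given as values only. For Gstt1, CS minus RA was 0.06 on the log2 scale in AT2 cells and -0.29 in AT1 cells. For Gsta3 it was -0.82 in alveolar and -0.39 in adventitial fibroblasts, and for Gsto1 0.00 in club and 0.30 in ciliated cells. In adventitial fibroblasts, Gsta3 was 5.05 transcripts per 10,000 in RA mouse F1 and 1.43, 1.96 and 1.86 in F3, M1 and M3. The CS mice held 1.93, 1.28, 1.55 and 1.49 there, so that the groups overlapped. The pair of alveolar and interstitial macrophages was not run, because only 1 mouse had 20 cells of the latter.

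Other genes of the pathway were taken from 4 lists of 65 genes, of which 63 were in the files, with 699 tests in the 22 types. Of these, 15 were higher and 1 was lower in CS at an adjusted p under 0.05, while 1.23% of all tests in the 22 types were called. In ciliated cells 12 of 50 listed genes were called, all 12 higher in CS, where 2.72% of all genes tested were called higher. The lists were chosen with earlier results of these data known, so that these shares are no independent support. A gene could also enter through the group where it was higher, and with no filter on genes the number of calls was 3. Of the 50, 37 were above 0, as were 55.5% of all genes tested there. With lane as a term 6 of the 16 calls remained, all in ciliated cells (Abcc1, Abcc3, Abcc4, Ggt1, Glrx and Slc7a11), and with a mouse left out the number of calls was 7 (without CS mouse D5) to 20 (without RA mouse M1). From glutathione synthesis, reduction and use, Esd, which releases formic acid from S-formylglutathione, was 1.16 ± 0.206 transcripts per 10,000 with smoke and 0.623 ± 0.143 in room air (SD, n = 4 each), a log2 difference of 0.41 (SE 0.0742, limma adjusted p = 0.0165). Ggt1, the surface enzyme that cleaves glutathione, was 0.401 ± 0.0769 and 0.135 ± 0.0807 (SD, n = 4 each), a log2 difference of 0.30 (SE 0.0512, limma adjusted p = 0.0128). Of the exporters of conjugates, Abcc1 was 0.907 ± 0.186 and 0.500 ± 0.0576 (SD, n = 4 each), a log2 difference of 0.34 (SE 0.0613, limma adjusted p = 0.0165). The other 9 were Gpx1, Glrx and Slc7a11, the cystine carrier that feeds glutathione synthesis, the exporters Abcc3, Abcc4 and Abcc5, the glutathione transferases Gstm6 and Gstp3, and Ahr, the aryl hydrocarbon receptor. The club marker values given above for ciliated cells stand beside these calls too. The 4 calls outside ciliated cells did not pass with lane as a term. Ahr was higher in gCap cells, where 10.3% of all genes tested were called, at 2.11 ± 0.171 with smoke and 1.18 ± 0.319 in room air (SD, n = 4 each), a log2 difference of 0.52 (SE 0.102, limma adjusted p = 0.0274), and Hagh, a glyoxalase that uses glutathione, was lower there (log2 difference -0.13, limma adjusted p = 0.0336). Slc7a11 was higher in adventitial fibroblasts, at 0.613 ± 0.254 and 0.191 ± 0.0834 (SD, n = 4 each, limma adjusted p = 0.0376). Bach1, a repressor of genes with antioxidant response elements, was higher in alveolar fibroblasts, at 0.631 ± 0.0573 and 0.381 ± 0.0401 (SD, n = 4 each, limma adjusted p = 0.0451). None of the 41 listed genes tested in AT2 cells and none of the 34 in AT1 cells passed. By list, calls came to 6 higher and 1 lower of 329 tests for glutathione synthesis, reduction and use, 4 of 83 for export, 3 of 181 for regulators and Nrf2 targets, and 2 of 106 for other glutathione transferases. The 3 calls for regulators and Nrf2 targets were Ahr in ciliated and gCap cells and Bach1 in alveolar fibroblasts. The Nrf2 targets of that list, Nqo1, Txnrd1 and Srxn1, had no call in any type.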

How the data were processed

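Single-cell RNA was captured with droplet barcodes from 4 CS and 4 RA mice, as labelled. The authors aligned reads with STAR 2.7.3a and STARsolo to GRCm38 (per the labels), filtered cells on depth, corrected for ambient RNA by SoupX and assigned cell types. The matrix that the authors deposited is called normalized, but holds estimated counts, UMI counts after that removal, of which 1.28% are whole (within 1e-06). After their filter on mitochondrial transcripts, 1628 of the 41106 cells in these corrected counts exceed 5%.

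For each cell, counts were scaled to 10000 and averaged per mouse and labelled type. A mouse entered a type with 20 or more cells, a type with 3 or more mice per group, and a gene where 10% or more of CS cells or of RA cells held it. The test was limma 3.58.1 (R 4.3.3) on log2(mean + 1), with a mean-dependent prior spread and Benjamini-Hochberg adjustment per type at 0.05. Since SoupX values are not whole counts, no count model was used. Exact permutation tests, two-sided, served for single values (70 assignments for 4 against 4 mice). The limma step was also run on simulated data, in AT2 and gCap cells only and with changes larger than those called here. That run says nothing of changes as small as the calls. The mice are the replicates, and an SD holds both the differences between mice and counting error.

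The members and lists were chosen with earlier results of these data known. The genes described mouse by mouse were each member in its highest type, in AT2 cells and in each type where it passed. Gstm1 in fibroblasts and gCap cells, Gsta3 in alveolar fibroblasts and goblet cells, Mgst3 in alveolar macrophages and Gsto1 in classical monocytes were added after their values were seen. So were Gsta3 in adventitial fibroblasts, ciliated cells and alveolar macrophages, and Mgst2 in venous endothelial cells. Of the other lists, genes past the threshold were named, with values for up to 3 per type and direction by size. Likeness was read from the 2 genes of highest r per member. Promoter windows were read from RefSeq (GRCm38.p6), and gene positions from the GRCm38 annotation. Multiplets and cells labelled cell cycle were left out as the authors named them, and no further doublet caller was run. Alternatives were another pseudocount, other gene and cell filters, summed counts, other scalings, terms for lane and sex, no mean-dependent prior, a Wilcoxon test over cells and leaving out each mouse.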

Additional observations from a re-analysis of the deposited data

Results flagged for a closer look

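In 46 groups of 4 mice for the members in their highest types, in AT2 cells and where they passed, 1 mouse stood apart by Dixon's criterion, fewer than the 2.3 that chance gives at 1 in 20. This was CS mouse D5 for Gsto1 in ciliated cells, at 3.91 transcripts per 10,000 against 3.29 to 3.36 in the other 3 CS mice. Without D5, Gsto1 was higher in CS by a log2 difference of 0.25 (limma adjusted p = 0.108). Other values of the members were not put to this criterion, so the count does not cover them. Among them, Gsta3 of RA mouse F1 was 16.9 in alveolar fibroblasts, against 6.09 to 7.02 in the other RA mice. In adventitial fibroblasts it was 5.05, against 1.43 to 1.96.

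Of 30 exact permutation tests of whether CS minus RA was unequal in paired cell types, 3 gave a p of 0.0286, the smallest possible, and none passed adjustment (adjusted p = 0.245 for each). A pass would have needed most of the 30 tests to reach that smallest p. The value for AT2 cells minus that for AT1 cells was 0.35 on the log2 scale for Gstt1. For Gsta3, alveolar minus adventitial fibroblasts gave -0.43. For Gsto1, club minus ciliated cells gave -0.30.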

How the results depend on the processing

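The 4 calls between CS and RA, of 3 members, each kept their direction under every alternative run. The number that passed was 3 to 5 under the other scalings, the terms for sex, the other pseudocount, the filter at 25% of cells, the filters on cells, summed counts and no mean-dependent prior. It was 2 with lane as a term, which leaves fewer degrees of freedom (Gstt1 in AT1 cells and Mgst3 in alveolar macrophages), 0 with no filter on genes, which adjusts over more genes, and 22 with the Wilcoxon test over cells with Bonferroni correction, which takes cells of a mouse as independent. With each mouse left out it was 0 to 2, and 0 in 5 of 8. For the other genes of the pathway the number was 16 with all mice, 6 with lane as a term, 3 with no filter on genes, 22 with summed counts, 23 with the sex read from Xist and Ddx3y as a term, and 7 to 20 with each mouse left out. Among single member values, 4 of 24 had an exact p under 0.05, and 2 to 4 with a mouse left out. These 4 are the values that were included because they passed by limma, so that the count is no separate check. Within lanes or within sexes an exact p could not pass, as its smallest value is 0.125 or 0.0556, and these were not run. Of the steps between neighbouring cell types, 18 passed with all mice, 9 with at least 50 cells per mouse, and 0 to 17 with a mouse left out (17 without C2 or F1, 0 without any other), where the smallest exact p of 7 mice is 0.0156. Differences between paired types had an exact p under 0.05 in 3 tests, and in 1 to 4 with a mouse left out. The 10 members in ciliated cells were all above 0 in each setting except without RA mouse F3, where 9 were. Depth limits the low values: Gstt1 in ciliated cells rested on as few as 74.0 UMIs in a mouse, and a member found in under 10% of cells was not tested. Replicate numbers follow the order of the samples and pair no mice, whereas each lane pairs 1 CS with 1 RA mouse, so that the fit with lane as a term, with 2 calls, is the paired one.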

Other observations

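Leaving out CS mouse C5, which was lowest in Gstp1 in 14 of 16 types, changed the number of types in which Gstp1 was above 0 from 3 to 8 of 20. Without RA mouse M1 it was 7, without RA mouse M3 it was 5, and without any other mouse it was 1 to 4. RA mouse F1 was highest in Gstm1 in 8 of 17 types with 8 mice, and CS mouse D2 was highest in Mgst1 in 7 of 14. Gstp2 and Gstp3, the other pi-class genes, did not follow the order of Gstp1: in the 5 types where each was tested with 8 mice, C5 was not lowest in any. In alveolar macrophages, Gsta3 was found in too few cells to be tested, at 0 to 0.0362 transcripts per 10,000 in CS mice and 0.141 to 0.317 in RA mice. In venous endothelial cells Mgst2, also found in too few cells, was 0.111 to 0.267 in CS and 0.0413 to 0.105 in RA mice. Both were picked after their values were seen. The share of untested values without overlap was not counted, so that nothing is drawn from them.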
